A study of Macaca mulatta with 12 samples.

Results

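The HTR3A-expressing inhibitory neurons of the rhesus macaque amygdala were 97 nuclei of 26400 in the deposited single-nucleus RNA-seq table, and 2.96% of the 3272 nuclei with at least 3 UMIs of GAD1 and GAD2 together. GAD1 and GAD2 encode the enzymes that make GABA, and these 3272 nuclei are called GAD nuclei here. A UMI (unique molecular identifier) marks 1 captured RNA molecule. A nucleus was a member when it was a GAD nucleus with at most 1 UMI of SLC17A7 (a vesicular glutamate transporter of excitatory neurons), at most 1 of SST (somatostatin), 0 of LHX6 (a transcription factor of interneurons born in the medial ganglionic eminence), fewer than 8 of CNR1 (the cannabinoid receptor), 0 of CRH (corticotropin-releasing hormone) and at least 1 of HTR3A. The members were thus selected on the UMIs of these 8 genes, GAD1 and GAD2 included, so the levels of those genes are a description.

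Nuclei were isolated from frozen amygdala of Macaca mulatta, and the 12 labelled samples form 1 group whose titles carry 3 specimen numbers. No treatment, genotype, sex or age is given for any sample. The table held 151526883 UMIs, with a median of 5053.5 per nucleus and a range of 457 to 21684. Barcodes carried 1 of 3 endings, which no label ties to a sample. The nuclei were therefore treated as 1 sample with no replicate check and no test, and the 3 barcode sets, which may be technical, serve only to show whether a direction recurs. All intervals are 95% intervals for counting error only. Of the barcode sequences, 68 occurred in more than 1 set, and 0 of these belonged to a member.

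HTR3A encodes a subunit of the 5-HT3 receptor, the only serotonin receptor that is a ligand-gated ion channel, so serotonin excites the cells that carry it within milliseconds. In cortex and amygdala the gene is known from inhibitory neurons born in the caudal ganglionic eminence, a mixed class that includes VIP, reelin and cholecystokinin interneurons and that commonly expresses ADARB2. GPC5, which was proposed with HTR3A as a marker of these cells, encodes a glypican, a heparan sulfate proteoglycan anchored to the cell surface.

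The rule took a minority of the GAD nuclei with HTR3A. An HTR3A UMI was found in 332 of the 3272 GAD nuclei, or 10.1% (exact interval 9.13 to 11.2). The CNR1 limit removed the most of these: 196 of the 332 had 8 or more CNR1 UMIs, and for 154 of them this was the only condition failed. CRH was detected in 43, LHX6 in 23, more than 1 SST UMI in 20 and more than 1 SLC17A7 UMI in 6. Without the CNR1 limit 251 nuclei would have been members. The share with an HTR3A UMI was 0.158% (2 of 1268) in nuclei with astrocyte markers, at a median depth of 1941 UMIs, and 0.482% (15 of 3110) in nuclei with excitatory markers, at a median depth of 10605.

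The members numbered 36, 36 and 25 in the 3 barcode sets, which was 3.07, 3.25 and 2.52% of the GAD nuclei of each set. Their depth ran from 2190 to 10737 UMIs with a median of 6074. HTR3A counts were low: 69 of the 97 nuclei had 1 UMI, 13 had 2 and 15 had 3 or more, up to 7. A nucleus with 0 HTR3A UMIs may therefore be a cell of the same kind in which HTR3A was missed. The HTR3A level was 273, 245 and 268 CPM (UMIs of the gene as a share of all UMIs, scaled to 1000000) in the 3 sets.

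The inhibitory markers SLC32A1 and DLX1, which the rule did not use, gave few UMIs, and GPC5 was detected in close to the same share of members as of same-gate nuclei, although its level was higher in the members. SLC32A1 (the vesicular GABA transporter) was detected in 5 of 97 nuclei and DLX1 (a transcription factor of forebrain GABA neurons) in 6. The SLC32A1 share of 5.15% (1.70 to 11.6) compared with 8.99% in GAD nuclei of the same gate with HTR3A at 0, 1.42% in the astrocyte gate and 1.61% in the excitatory gate. ADARB2 was detected in 93 of the 97 nuclei. GPC5 was detected in 43 of the 97 members, or 44.3% (34.2 to 54.8), beside 44.2% of the 1190 same-gate nuclei with HTR3A at 0, 50.4% in the astrocyte gate and 59.6% in the excitatory gate. At a common depth of 2000 UMIs the member and same-gate shares were 36.1% and 28.5%.

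The members fell mainly into 3 groups. All GAD nuclei were clustered into 16 clusters without the rule genes and without any gene of the lists or marker sets described here, and the 97 members lay in 11 of them. Cluster 6 held 30 members, cluster 5 held 24 and cluster 16 held 22; the other 21 members were spread over 8 clusters with at most 6 each. HTR3A itself, which the clustering did not use, was detected in 22 of the 29 nuclei of cluster 16 (75.9%, 56.5 to 89.7), in 143 of the 271 nuclei of cluster 6 (52.8%, 46.6 to 58.8), in 81 of 294 in cluster 4 (27.6%) and in 34 of 290 in cluster 5 (11.7%). In the other 12 clusters the share was at most 5.26%. Clusters 4 and 6 together held 224 of the 332 GAD nuclei with HTR3A but only 36 members, because 75 and 106 of their HTR3A nuclei had 8 or more CNR1 UMIs. All 29 nuclei of cluster 16 met every condition other than HTR3A. They came 12, 11 and 6 from the 3 barcode sets.

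**Figure D1:**
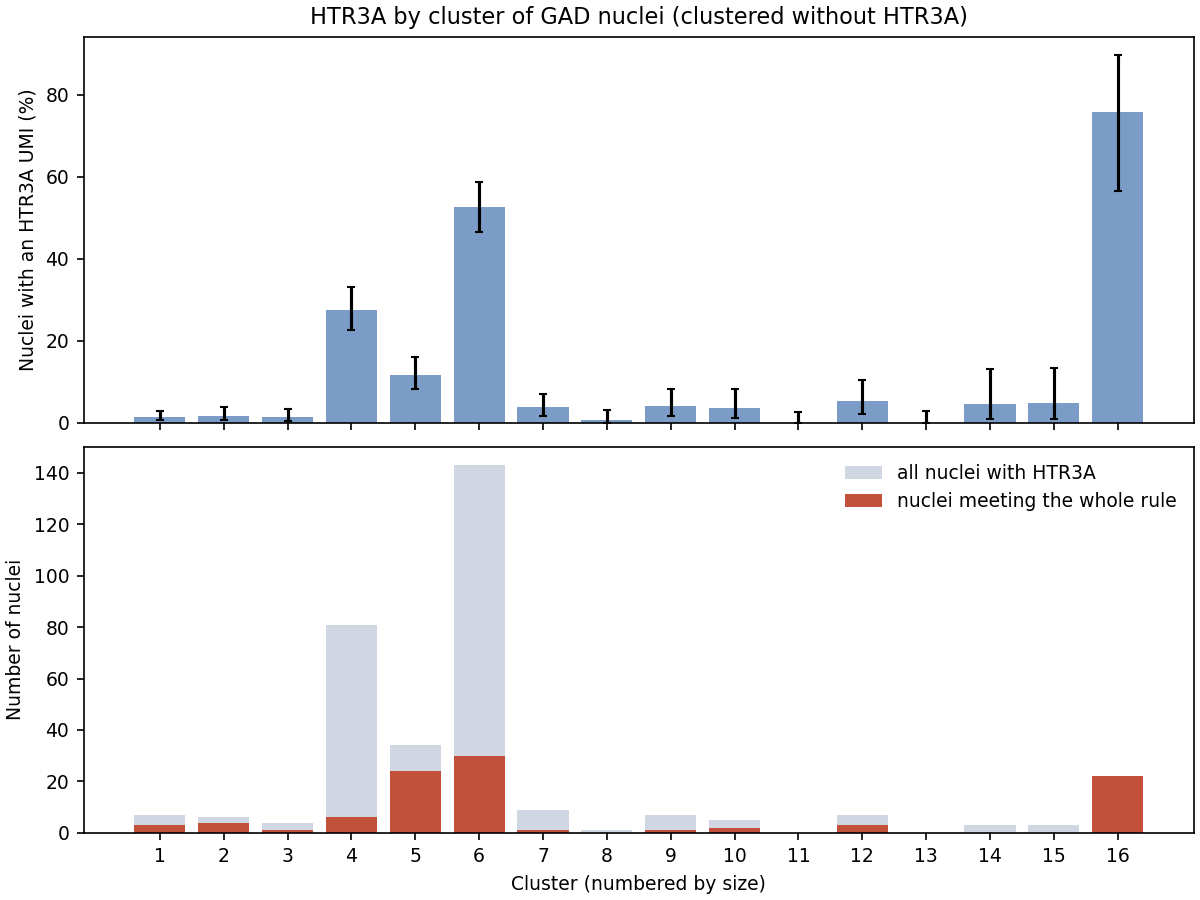
Upper panel: share of nuclei with at least 1 HTR3A UMI in each of the 16 clusters of GAD nuclei, in percent, with exact 95% intervals. Lower panel: number of nuclei with HTR3A (grey) and of members (red). Cluster 16, with 29 nuclei, had the highest share (75.9%), and most HTR3A nuclei of clusters 4 and 6 were not members.

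The members of clusters 6, 5 and 16 were compared on the listed genes that the clustering had not used. These comparisons were chosen after the data were seen, set members of 1 cluster against the other members, and count list genes with at least 20 UMIs that differed at least 2-fold with the same direction in all 3 barcode sets. Of 158 such genes, 12 (7.59%) were higher and 30 (19.0%) lower in cluster 6. In cluster 5, 13 of 147 (8.84%) were higher and 25 (17.0%) lower. In cluster 16, 24 of 160 (15%) were higher and 38 (23.8%) lower.

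GPC5 belonged to the cluster 6 members. Of the 925 GPC5 UMIs in all members, 815 (88.1%) lay in these 30 nuclei, of which 28 had at least 1, with a lowest count of 0, a median of 19 and a highest of 85 per nucleus. The level was 4725 CPM there, 523 CPM in the cluster 5 members (5 of 24 nuclei), 23.4 CPM in the cluster 16 members (3 of 22) and 313 CPM in the rest (7 of 21). Among the cluster 6 members, per barcode set, it was 4230, 4118 and 5564 CPM, so all 3 sets were high. The other nuclei of cluster 6 had GPC5 too. It was 6024 CPM in its 128 nuclei with HTR3A at 0 and 4199 CPM in its 113 HTR3A nuclei outside the gate.

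Of 46 adhesion and guidance genes, 6 were higher and 9 lower in the cluster 6 members than in the other members (median log2 of -0.13). Over all 158 list genes 7.59% were higher and 19.0% lower, and the lower share of this list was close to that. EPHA3, EPHA6, NTNG1 and CDH12 were among the lower adhesion genes in cluster 6. SATB1, a chromatin organizer, had 45 of its 61 member UMIs there (log2 difference of 2.79 from the other members). PCDH11X, a protocadherin, had 89 of 125 (2.61), and GABRG1, a GABA-A receptor subunit, 46 of 75 (1.97). EFNA5, an ephrin ligand of EphA receptors, had 408 of 697 (1.80), and 28 of the 30 nuclei had at least 1 EFNA5 UMI. GRIK1, a kainate receptor subunit, stood at 4986 against 1709 CPM, and HTR1F, an inhibitory serotonin receptor, at 244 against 84.8 CPM. CDH4, TENM2, CNTN5, CNTNAP5 and CHRM3 were also among the 12 higher genes. ADARB2 was lower at 4325 against 9687 CPM, and it was detected in all 30 nuclei. The CNR1 limit acted on this cluster: CNR1 was 539 CPM in its members by construction and 2786 CPM in its HTR3A nuclei outside the gate, whose ADARB2 level was 11816 CPM and whose RELN level was 1904 CPM beside 754 CPM in the members.

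Members in cluster 5 had more of the caudal ganglionic eminence factor PROX1 than the other members (log2 difference of 2.52). Of its 33 member UMIs, 20 lay in 12 of these 24 nuclei. CDH7, a cadherin, had 22 of 34 UMIs (2.77), though in 7 nuclei, and CBLN2, a secreted synapse organizer, had 21 of 37 in 17 nuclei (2.29). ERBB4, the neuregulin receptor of interneurons, was 12170 against 5523 CPM, and GRM7, a presynaptic metabotropic glutamate receptor, 1861 against 764 CPM. VIP, the neuropeptide, was sparse: 6 of its 8 member UMIs lay in cluster 5. These nuclei were low in HTR2C (5 of 343 UMIs), NTNG1 (6 of 710), CDH12 (5 of 315) and CHRM2 (2 of 99). Only 3 of the 24 came from the third barcode set, so directions there rest on few nuclei.

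The 22 members in cluster 16 shared a set of genes with few UMIs in most of the other 75. MEIS2, a homeodomain transcription factor known from striatal-like inhibitory neurons, had 108 of its 114 member UMIs there, in 21 of the 22 nuclei with a lowest count of 0, a median of 4.5 and a highest of 15. GPC3, another glypican, had 54 of 55 UMIs in 16 nuclei. HTR2C, an excitatory G-protein-coupled serotonin receptor, had 267 of 343 UMIs and was in all 22 nuclei, from 1 to 26 UMIs with a median of 12. Each of these was high in all 3 barcode sets: MEIS2 was 742, 552 and 604 CPM, GPC3 was 323, 227 and 473 CPM, and HTR2C was 1533, 1572 and 1602 CPM.

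Of 46 adhesion and guidance genes, 7 were higher and 10 lower in cluster 16 (median log2 of -0.21). Over all 160 list genes 15% were higher and 23.8% lower, and both shares of this list were close to those. CDH7, CDH18, ROBO1 and TENM2 were among the lower adhesion genes. NTNG1, which encodes netrin-G1, had 624 of 710 member UMIs in cluster 16 with at least 15 in every one of the 22 nuclei, whereas its highest count was 1 in the cluster 5 members and 3 in the cluster 6 members; 1 member elsewhere had 31. EPHA3, an ephrin receptor, had 531 of 696 UMIs, from 8 to 42 per nucleus. EPHA6, CDH8, CDH12, SLIT3 and EPHA5 were also at least 2-fold higher, with log2 differences of 2.56, 2.29, 3.44, 3.38 and 1.75. KCNH8, a slowly gating potassium channel, had 116 of 138 UMIs. BCL11B, a transcription factor of medium spiny neurons, had 80 of 101, and TACR1, the substance P receptor, 61 of 89. Of 6 measured genes of the striatal-like and intercalated list, MEIS2 and BCL11B were higher and TSHZ1 was lower. TSHZ1 had 2 of 27 UMIs there, a log2 ratio of -2.32 with an interval of -5.45 to -0.32. FOXP1, PDE10A and PPP1R9A did not pass. These counts stand beside 15% higher and 23.8% lower over all 160 list genes, and 6 genes are too few to set this list apart. NPY was detected in members only in cluster 16, with 8 UMIs in 7 nuclei.

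The same nuclei had little RNA of several genes found in the other members. RELN, the secreted protein reelin, had 4 of its 320 member UMIs there and CCK, cholecystokinin, 1 of 47. SATB1 had 0 of 61 and CDH7 0 of 34. CACNA2D1, a calcium channel subunit, had 2 of 99, PROX1 2 of 33 and GRIN3A, an NMDA receptor subunit, 2 of 83. ERBB4 was 1342 against 9164 CPM in the other members, and CHRM3, a muscarinic receptor, 141 against 1407 CPM. ADARB2, in contrast, was detected in all 22 nuclei, from 40 to 98 UMIs, at 8800 CPM.

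HTR3A counts were highest in cluster 16: of the 15 members with 3 or more HTR3A UMIs, 12 were there. The HTR3A level was 387 CPM beside 232 CPM in the cluster 6 and 206 CPM in the cluster 5 members. As the rule asks for at least 1 HTR3A UMI, these member levels are a description. Over all nuclei of clusters 16, 6 and 5, members or not, the HTR3A level was 302, 120 and 26.0 CPM. The 7 cluster 16 nuclei with HTR3A at 0 had the same genes. MEIS2 was in 7 of these 7 nuclei at 797 CPM, GPC3 in 6 at 315 CPM, HTR2C in 6 at 1699 CPM, NTNG1 in 7 at 3712 CPM and EPHA3 in 7 at 3419 CPM. GPC5 had 4 of its 925 member UMIs in cluster 16. Of the 25 members with MEIS2 in any cluster, 5 also had a GPC5 UMI.

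Markers of other cells were looked at beside cluster 16. The 7 astrocyte markers summed to 984 CPM in its members (722 to 1178 CPM over the barcode sets), beside 186 CPM in the cluster 6 members, 238 CPM in the cluster 5 members, 326 CPM in the same-gate nuclei and 5829 CPM in the astrocyte gate. Of those 168 UMIs, 147 were of SLC4A4, a bicarbonate cotransporter, which was in 21 of the 22 nuclei. SLC1A3, a glutamate transporter, had 15 UMIs. The astrocyte-defining AQP4 had 4, GFAP 1, GJA1 1, and ALDH1L1 and FGFR3 0. The median doublet score was 0.0989 in cluster 16 and from 0.0131 to 0.441 in the other 15, of which clusters 10, 12 and 14 were above it, with 2 of the 29 nuclei among the presumed doublets. Without presumed doublets the cluster recurred with its remaining 27 nuclei, 20 of them members. What part other cells have in these levels was not tested.

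**Figure D2:**
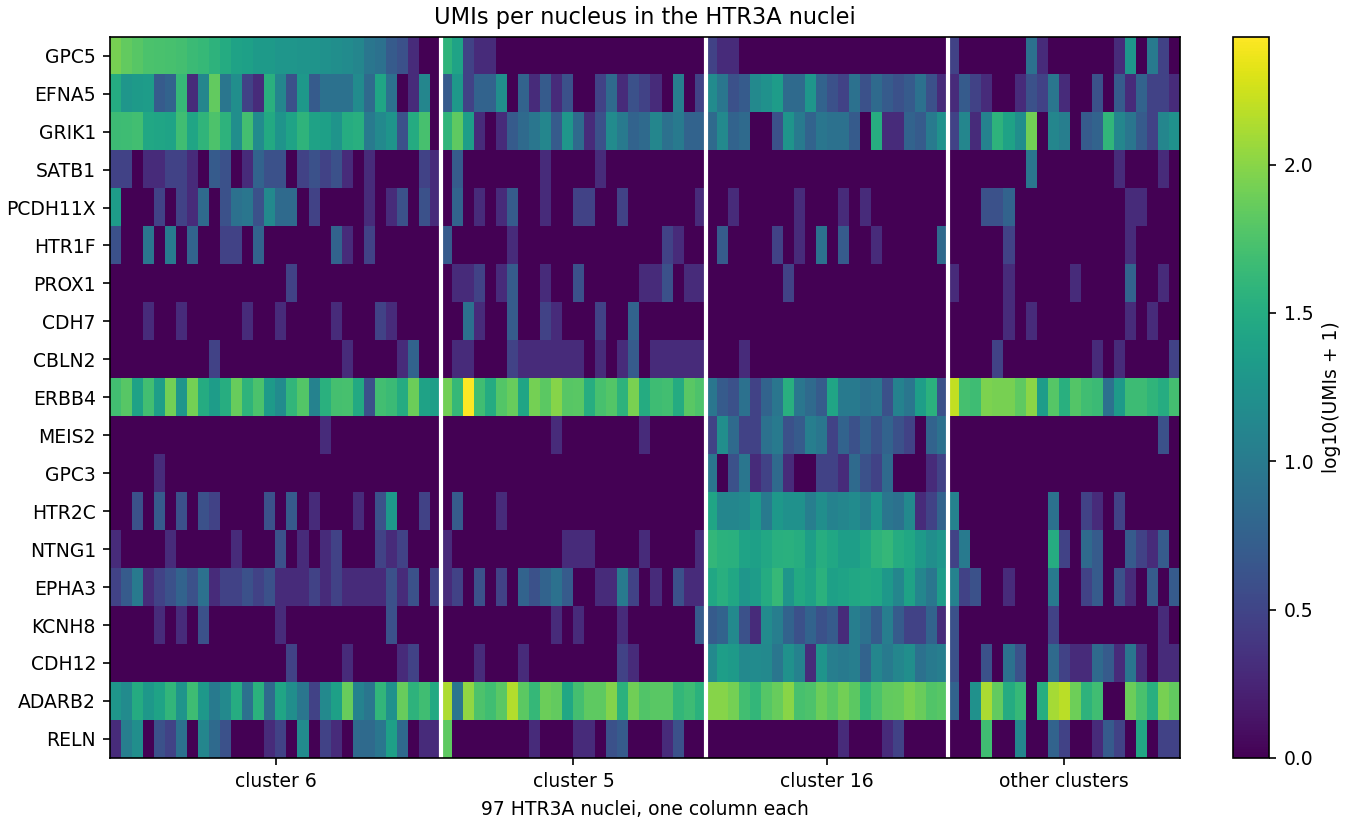
UMIs per nucleus, as log10(UMIs + 1), of 19 genes in the 97 members, 1 column each, ordered by cluster and within it by GPC5. GPC5 is high in most of the 30 nuclei of cluster 6. MEIS2, HTR2C, NTNG1, EPHA3, KCNH8 and CDH12 are high in most of the 22 of cluster 16. GPC3 lies mainly in cluster 16 too, though some of its nuclei have no GPC3 UMI. ADARB2 was detected in 93 of the 97.

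The members as a whole were next set against the 1190 nuclei that met every condition but HTR3A, which have a median depth of 5409.5 UMIs. Genes with at least 50 UMIs on either side were measured, and a gene counts as higher or lower when it differed at least 2-fold with the same direction in all 3 barcode sets. Of 7806 genes 145 (1.86%) were higher and 253 (3.24%) lower. Against all 2940 other GAD nuclei with HTR3A at 0, 159 of 7783 (2.04%) were higher and 219 (2.81%) lower. The same-gate nuclei are part of those 2940 and the members are the same, so the 2 comparisons share their data. The median log2 difference over all measured genes was 0.05 and 0.06.

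Several of the highest genes against the same gate came largely from cluster 16. GPC3 was 92.1 against 13.9 CPM (log2 difference of 2.73, 2.23 to 3.22) and MEIS2 191 against 36.0 CPM (2.41, 2.07 to 2.73). Without the 22 members of cluster 16 these 2 differences turned to -2.56 and -1.36. Of the 145 higher genes, 86 also passed without cluster 16 and 14 changed direction. Of the 253 lower genes, 153 also passed and 0 changed direction. The loss of passing genes was similar without cluster 6, where 87 higher and 167 lower genes remained and 5 and 0 changed direction. Without cluster 5, 109 and 182 remained and 0 changed direction.

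Other genes were high without cluster 16 too. SLC18A2, the vesicular monoamine transporter, was at least 105 CPM in the 3 sets of members and between 12.5 and 24.2 CPM in those of the same-gate nuclei (log2 2.72, and 1.26 without cluster 16). The 2 groups did not overlap over the sets, which is a description, as the gene was picked for 1 direction in all 3 sets. Of the 97 members, 33 had a UMI of SLC18A2. DOCK2, an activator of Rac, was 264, 197 and 200 CPM against 35.7, 35.2 and 37.9 CPM (log2 2.61, and 1.83 without cluster 16). KCNK2, a two-pore potassium channel, was 142 against 34.4 CPM (2.05, and 1.58 without). KCNH8, ITGA6 (a laminin receptor subunit), SCN7A (a sodium sensor), FREM2 (a matrix protein) and PENK (proenkephalin) completed the 10 largest, with log2 differences from 1.88 to 2.23. ITGA6 turned to -0.55 without cluster 16, and KCNH8 went to 0.07. SLC18A2, DOCK2, KCNK2, ITGA6, SCN7A and FREM2 were open to the clustering.

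The genes furthest below the same-gate nuclei had few molecules in the members. LAMP5, a marker of neurogliaform interneurons, had 1 UMI in the 97 members and 346 in the 1190 nuclei, a log2 ratio of -4.88 with an interval of -10.19 to -2.40. GABRD, a subunit of extrasynaptic GABA-A receptors, had 1 UMI (-4.39, -9.70 to -1.90), RSPO2, a Wnt agonist, 1 (-4.23, -9.54 to -1.74, and -2.16 against the 3-count floor without cluster 16) and ADAM33, a metalloprotease, 1 (-3.85, -9.16 to -1.35). RERG, PTPN14, TOX, TPD52L1, COL21A1 and SERTM1 followed with log2 differences from -3.20 to -2.84.

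Among the serotonin receptors, 11 of the 13 listed were in the table and 5 were measured in the same-gate comparison. Of these, 2 were higher and 1 lower (median log2 of 0.69), beside 1.86% and 3.24% of all genes. HTR1F was 91.1, 171 and 125 CPM in the member sets and 44.4, 43.3 and 45.3 CPM in the same-gate sets. Its log2 difference was 1.56 (1.18 to 1.92) and it was 1.49 without cluster 16 and 0.94 without cluster 6. HTR2C was 503, 600 and 630 CPM against 238, 183 and 231 CPM (log2 1.41), but -0.28 without cluster 16. HTR1E, an inhibitory receptor, was 14.4, 26.3 and 18.7 CPM against 60.2, 83.4 and 96.2 CPM (log2 -1.97, -2.93 to -1.15), and 0 of its 12 member UMIs lay in cluster 6. HTR3B, the partner subunit of HTR3A, had 0 UMIs in the members, where 3 counts would be 5.02 CPM, and 8 UMIs (1.14 CPM) in the same-gate nuclei, so a difference was not detectable at this depth.

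Of 10 measured neuropeptide and secreted signal genes, 1 was higher and 3 lower than in the same gate (median log2 of -0.13). The shares over all genes were 1.86% and 3.24%. PENK had 16 UMIs in 15 of the 97 members, 26.8 against 7.29 CPM (log2 1.88, 0.97 to 2.71), and 9 of the 16 lay in cluster 6. The share of nuclei with PENK was 15.5% beside 3.61% in the same-gate nuclei and 1.97% in the astrocyte gate. RELN was 144, 1038 and 331 CPM in the member sets and 1963, 2013 and 1854 CPM in the same-gate sets (log2 -1.86, -2.03 to -1.70). The synaptic neurexin ligands NXPH1 (-1.35) and NXPH2 (-1.78) were the other lower genes. VIP was in 7.22% of the members (2.95 to 14.3) and 2.69% of the same-gate nuclei, CCK in 23.7% and 21.9%, and TAC3 in 0 of 97, which allows a share of nuclei with a UMI of up to 3.09%. CALB2 was detected in 3 members, NDNF in 7 and PNOC in 6.

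Of 14 measured caudal ganglionic eminence genes, 1 was higher and 6 lower, with a median log2 of -0.62. The counts of this and the next lists stand beside 1.86% higher and 3.24% lower over all genes. NPAS1, a transcription factor, was higher at 197, 136 and 162 CPM against 59.0, 57.9 and 47.3 CPM (log2 1.57), and 1.95 without cluster 16, whose members had 7 of the 98 UMIs. LAMP5, TOX3 (-2.59), ID2 (2 UMIs, -2.53, -5.59 to -0.65), SV2C (-2.13), EGFR (-1.69) and NDNF (-1.15) were lower. ADARB2 was 8139 against 5950 CPM (0.45), under the 2-fold rule. PROX1, also under it, was lower in the members as a whole at 55.3 against 93.6 CPM (-0.76, -1.31 to -0.26). Without the cluster 5 members its log2 difference was -1.76. Of 5 measured medial ganglionic eminence genes 0 were higher and 0 lower. In the list of striatal-like and intercalated neuron genes, 3 of 10 were higher (MEIS2, PENK, DRD2) and 0 lower, and the median was -0.02. The same 3 passed without cluster 5. Without cluster 16, TSHZ1 and PENK were higher and MEIS2 and BCL11B lower, of 8 measured. Without cluster 6, MEIS2 was the 1 higher gene of 6 measured, and 0 were lower. DRD2, a dopamine receptor, had 12 UMIs in 10 nuclei (log2 1.28).

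Over all genes 1.86% were higher and 3.24% lower. Both shares were larger in the glutamate receptor, GABA receptor, potassium channel and sodium and calcium channel lists, each on few genes. Among 22 glutamate receptor genes, GRM8, a presynaptic metabotropic receptor, was higher (log2 1.06, and 0.44 without cluster 16), and GRIA4 (-1.72), GRIN3A (-1.87) and GRIK3 (3 UMIs, -2.22, -4.51 to -0.65) were lower, with a median of -0.01. Among 13 GABA receptor genes, GABRG1 was higher (1.43, and 0.55 without cluster 6), and 5 were lower, among them GABRD, GABRA5 (-1.49), GABRB2 (-1.11) and GABBR2, with a median of -0.30. Of 27 potassium channel genes KCNH8 was higher and KCNAB1 (-1.95) and KCNQ5 (-1.39) lower. Of 19 sodium and calcium channel genes SCN9A was higher (1.07) and CACNA2D1 (-1.94) and CACNA1I (-1.21) lower. Of 8 genes in the list of GABA synthesis and inhibitory synapse genes, 0 were higher and 2 lower. ALDH5A1, which acts in GABA breakdown, was 1 of these, with 4 UMIs (-1.83).

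Heparan sulfate genes, the group to which GPC5 belongs, did not move as 1 block. Of 20 measured genes besides GPC5, GPC3 and NRP1 were higher and EXTL3 (-1.10) and HS3ST1 (-1.58) lower, with a median log2 of -0.13. The shares over all genes were 1.86% higher and 3.24% lower. NRP1, a receptor of semaphorins, was 507 against 184 CPM (log2 1.46), and 0.91 without cluster 16. GPC5 was 988, 1436 and 2439 CPM in the member sets and 707, 604 and 494 CPM in the same-gate sets (log2 1.35, 1.24 to 1.45), but -1.23 without the 30 members of cluster 6. Against all other GAD nuclei its log2 difference was 0.82, under the 2-fold rule, and -1.76 without cluster 6.

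Of 49 measured adhesion and guidance genes, 6 were higher and 4 lower than in the same gate (median log2 of 0.27). The shares over all genes were 1.86% and 3.24%. EFNA5 was 805, 1033 and 1828 CPM against 395, 372 and 352 CPM (log2 1.64) and was 0.86 without cluster 6. EPHA3 was 1223, 1174 and 1079 CPM against 357, 373 and 350 CPM (log2 1.69), and 0.10 without cluster 16. NTNG1 (1.55), CDH12 (1.23) and CDH8 (1.14) went to -1.01, -0.70 and 0.06 without cluster 16, and CNTN6 (1.21) to 0.93. NTNG2 (5 UMIs, -1.53), PCDH15 (-1.15), CNTN5 (-1.10) and CDH9 (-1.01) were lower. No gene of the acetylcholine receptor (4 measured) or immediate early (4 measured) lists passed, and of 7 peptide receptors NPY1R (-1.15) and OPRD1 (-1.06) were lower.

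**Figure D3:**
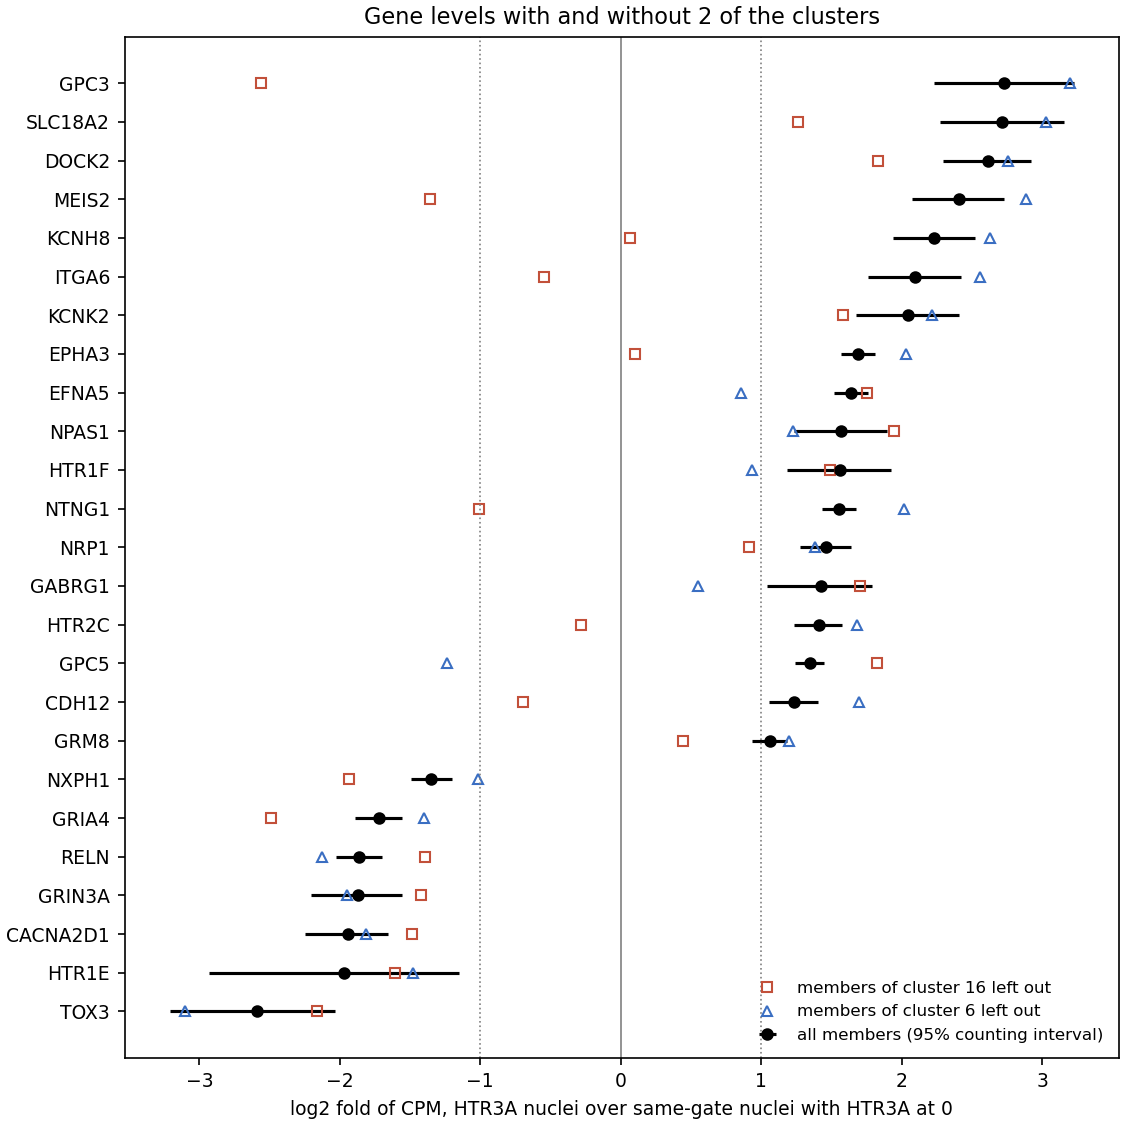
log2 difference in CPM between the 97 members and the 1190 same-gate nuclei with HTR3A at 0 for 25 genes, with 95% counting intervals (black), and the same without the 22 members of cluster 16 (red squares) or the 30 of cluster 6 (blue triangles); dotted lines mark 2-fold. GPC3, MEIS2, NTNG1, HTR2C, CDH12 and ITGA6 turn below 0 without cluster 16 and GPC5 without cluster 6, while the 7 lower genes stay below 0.

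Most GAD nuclei with HTR3A lay beyond the CNR1 limit, so the members were also compared with 326 CNR1-high GAD nuclei with HTR3A at 0. These had 8 or more CNR1 UMIs and at most 1 SLC17A7 UMI (median depth 7730 UMIs). The conditions on SST, LHX6 and CRH were not applied to them. Of 6825 genes 130 (1.90%) were higher and 179 (2.62%) lower in the members. ITGA6 (log2 3.93), MEIS2 (3.63), GPC3 (3.58) and GALNT14 (3.19), a glycosyltransferase, were the highest. MEIS2 and GPC3 turned to -0.13 and -1.71 without cluster 16, where ITGA6 was 1.29 and GALNT14 3.48. GALNT14 had 131 of its 191 member UMIs in cluster 5, and it was open to the clustering.

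RELN was lower in the members than in the CNR1-high nuclei, at 536 against 3438 CPM (log2 -2.68, -2.85 to -2.52) and -2.21 without cluster 16. CHRM3 was 1045 against 3052 CPM (-1.55), while CHRM2 was higher at 166 against 58.5 CPM. The orexin receptor HCRTR2 (-2.05), the VIP receptor VIPR2 (3 UMIs, -2.02, -4.34 to -0.40) and KCNQ5 (-1.94) were lower, and TACR1 was higher (2.12, and 0.94 without cluster 16). GRIA4 and NXPH1, which were lower than in the same gate, were higher than in the CNR1-high nuclei (1.11 and 2.01). GPC5 was 1549 against 3060 CPM (-0.98), and ADARB2 8139 against 15658 CPM (-0.94). Of 48 adhesion genes 8 were higher and 0 lower, beside 1.90% and 2.62% of all genes. EPHA3 (1.81, and 0.22 without cluster 16), EFNA5 (1.73) and SLIT2 (1.40) were among the 8. HTR1F (1.26), HTR2C (1.32, and -0.37 without cluster 16) and HTR1E (-1.88) kept the directions they had against the same gate.

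Around the HTR3A threshold, levels were compared as a description among nuclei that met the other conditions. With 0, 1, 2 and 3 or more HTR3A UMIs the nuclei numbered 1190, 69, 13 and 15, and their median depth was 5409.5, 5516, 7262 and 7656 UMIs. MEIS2 was 36.0, 78.8, 144 and 616 CPM, and HTR2C was 216, 254, 919 and 1409 CPM. RELN was 1949, 704, 409 and 52.8 CPM. GPC5 was 609, 1673, 1184 and 1409 CPM, so it was higher with 1 UMI than with 0 but had no steady course beyond. LAMP5 had 346, 1, 0 and 0 UMIs. As 12 of the 15 nuclei with 3 or more HTR3A UMIs were in cluster 16, the upper end describes that cluster.

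**Figure D4:**
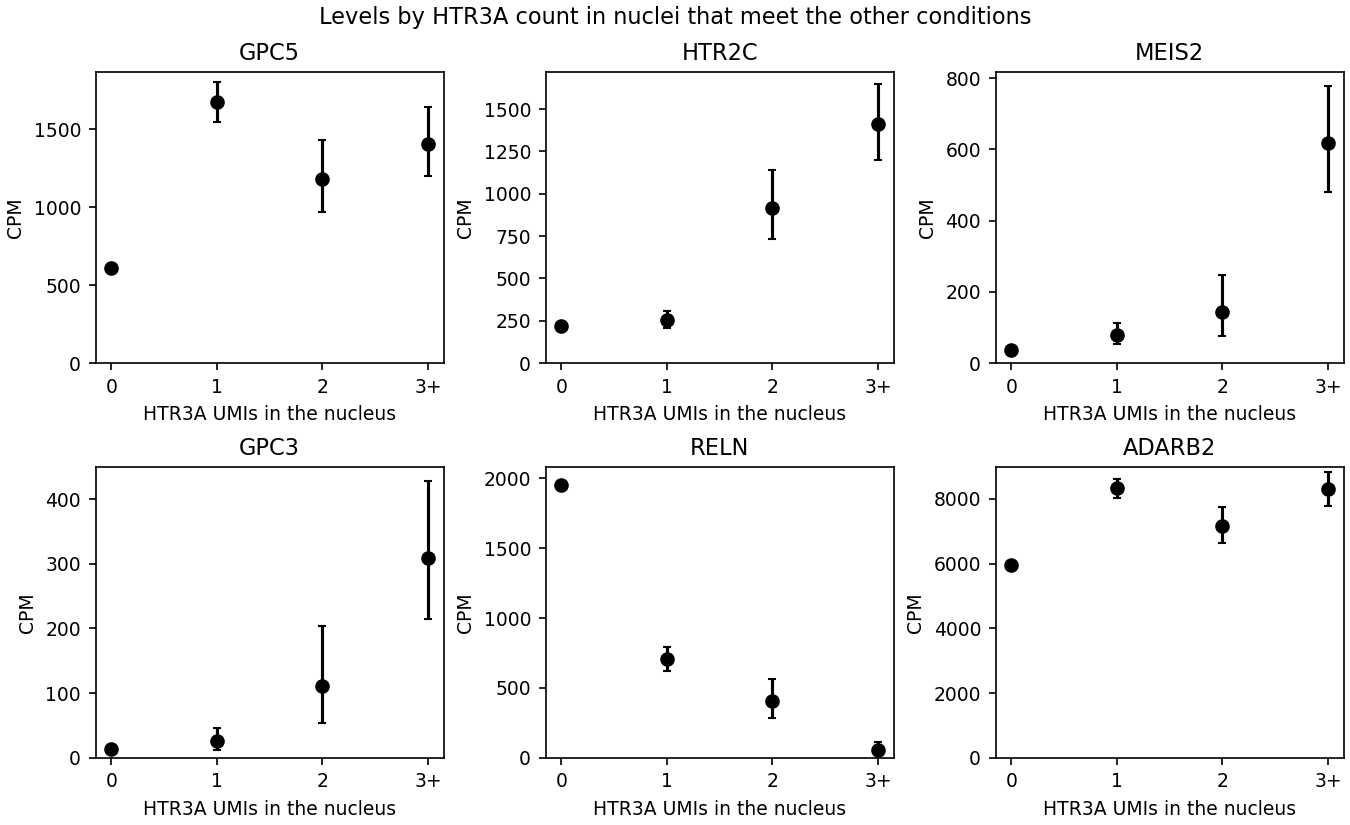
Level in CPM, with exact 95% Poisson intervals, of 6 genes in nuclei with 0, 1, 2 and 3 or more HTR3A UMIs that met all other conditions (n = 1190, 69, 13 and 15). MEIS2, GPC3 and HTR2C are highest and RELN lowest at 3 or more UMIs, while GPC5 is highest at 1.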

How the data were processed

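Nuclei of 12 macaque amygdala samples were profiled with a 10x Genomics 3′ kit, given as version 2 per the labels' protocols. The authors deposited whole-number UMI counts of 19708 genes in 26400 nuclei as 1 table, made with fastp and Cell Ranger 3.0.0 against GRCh38 per the submitters' processing notes; the annotation is not given in the sources used here. As 5142 gene rows carry macaque Ensembl identifiers (796 were given a symbol from a reference table), no coordinates are used. Such 3′ counts of nuclear RNA depend on how well gene ends are annotated.

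For each group of nuclei the UMIs of a gene were added up and expressed per 1000000 UMIs of the group (CPM). A log2 difference is the log2 ratio of CPM between 2 summed groups, with a count of 0 set to 3 counts. A gene was measured with at least 50 UMIs on either side and at least 10 expected on each side, and counted as higher or lower at 2-fold or more with 1 direction in all 3 barcode sets. The 8 rule genes stayed out of all counts. Poisson, Clopper-Pearson and conditional binomial intervals (95%) were used. GAD nuclei were clustered with scanpy 1.11.5 (2000 variable genes, 30 components, 15 neighbours, Leiden resolution 0.5). Doublets were kept, and the highest Scrublet scores per barcode set, at 0.8% per 1000 nuclei, were left out as an alternative (1862 nuclei, 8 of them members). The astrocyte gate took nuclei with at least 3 UMIs of AQP4, GFAP, GJA1 and ALDH1L1, no GAD1 or GAD2 and no RBFOX3. Other alternatives changed the UMI minimum, the rule's thresholds, the depth (thinning to 2000 UMIs) and the weighting, and left out barcode sets or clusters. The calculation was tested on simulated counts.

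Named genes were the 10 largest differences in each direction and up to 4 per list and direction that passed, plus GPC5, HTR3B and the subtype genes; the other genes named were chosen after their values were seen. Of 353 list genes 318 were present. The members and lists were chosen with earlier results of these data known.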

Additional observations from a re-analysis of the deposited data

How the results depend on the processing

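With no UMI minimum the counts of higher and lower genes were 342 and 523 against other GAD nuclei, 337 and 598 against the same gate, and 529 and 471 against CNR1-high nuclei. After thinning to 2000 UMIs they were 240 and 461, 249 and 498, and 276 and 355. With a minimum of 100 the CNR1-high counts were 80 and 108, and with 2 or more HTR3A UMIs that comparison had 198 higher genes. Without the CNR1 limit, a setting chosen after the data were seen, 340 genes were lower than in other GAD nuclei, 81 were higher than in the same gate, and the CNR1-high counts were 30 and 24. The members numbered 28 with 2 or more HTR3A UMIs, 31 with GAD1 and GAD2 of 6 or more, and 251 without the CNR1 limit. Leaving out 1 barcode set gave 166 to 197 higher genes and 207 to 227 lower ones against other GAD nuclei, 174 to 182 and 239 to 270 against the same gate, and 105 to 118 and 160 to 214 against CNR1-high nuclei. Of 3298 log2 values of named genes under 17 alternatives, 30 changed sign and 1 went to 0.0 among genes past the 2-fold rule. Among genes under it 11 changed sign (8 for PROX1, 2 for GPC5 and 1 for CCK). Changes in the size of a difference without a change of sign are not in these counts.

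Without the cluster 16 members, a setting also added later, the log2 differences against other GAD nuclei turned for MEIS2 (-0.78), GPC3 (-1.90), NTNG1 (-0.78), CDH12 (-0.81), KCNH8 (-0.26), SLIT3 (-0.64) and GPC4 (-0.84). Against the same gate they turned for MEIS2 (-1.36), GPC3 (-2.56), NTNG1 (-1.01), CDH12 (-0.70), HTR2C (-0.28) and ITGA6 (-0.55), and against CNR1-high nuclei for MEIS2 (-0.13), GPC3 (-1.71), HTR2C (-0.37), SLIT3 (-0.12) and TMEM132C (-0.51). Without the cluster 6 members GPC5 turned to -1.23 against the same gate and from 0.82 to -1.76 against other GAD nuclei, and PCDH11X (-0.12) and SATB1 (-0.0014) turned against CNR1-high nuclei. Thinning turned GPC4 to -0.35 against other GAD nuclei. Without the CNR1 limit ALDH5A1 (0.0553), GPC4 (-0.18), KCNQ5 (0.0043), NPY1R (0.10) and RELN (0.26) turned against other GAD nuclei, ALDH5A1 (0.17), NPY1R (0.0) and OPRD1 (0.10) against the same gate, and OPRD1 (0.0432) against CNR1-high nuclei. The cause was not tested, other than by the construction of each setting.

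The cluster 16 nuclei stayed together at resolution 1.0 and with only the rule genes held out (29 of 29 each). At resolution 1.0, 18 of the 24 members of cluster 5 and 22 of the 30 of cluster 6 stayed together. No paired analysis was possible because no nucleus could be tied to a labelled sample. With a median of 6074 UMIs and mostly 1 HTR3A UMI per member, low genes rest on a few molecules.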

Other observations

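HTR3A was also found outside the GAD nuclei. Of 510 nuclei with an HTR3A UMI, 178 had fewer than 3 UMIs of GAD1 and GAD2, 114 of them with 1 or 2 and 64 with 0; these were in no comparison. Among the 235 GAD nuclei with HTR3A that failed another condition, 89 had 2 or more HTR3A UMIs, beside 28 of the 97 members. SLC18A2, the vesicular monoamine transporter, was 53.6 CPM in these 235 nuclei, 116 CPM in the members and 60.4 CPM in the CNR1-high nuclei with HTR3A at 0. GPC5 was 520 CPM in the LHX6 nuclei and 254 CPM in the CRH nuclei with HTR3A at 0.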
